A study of Mus musculus with 6 samples.

Results

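Semaphorins are guidance proteins that growing axons and vessel sprouts read as local signals, most often as repellents, and plexins are their receptors. The genes described here are 5 semaphorins (Sema3a, Sema3e, Sema4d, Sema6a and Sema6d) and 5 plexins (Plxna1, Plxna2, Plxna4, Plxnb1 and Plxnb2). They were followed by every probe set that the annotation of the mouse expression array assigns to them alone, which gave 28 of the 45101 probe sets on the array, for 10 of the 18193 genes it names.

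Whole-tissue RNA was taken on embryonic day 15.5 from posterior eye segments of mouse embryos, in 3 wild-type (WT) and 3 Oa1-/- samples. Each sample pooled the eyes of 6 embryos of 1 dam after the anterior segments had been cut away, so a replicate is a litter pool. Oa1, now named Gpr143, is a pigment cell gene for a G protein-coupled receptor, and its loss causes ocular albinism, in which too few retinal axons stay on the same side of the brain at the optic chiasm. The sources used here give no strain, no extent of the deletion and no embryo sexes.

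Secreted class 3 semaphorins such as Sema3a usually bind a neuropilin, which pairs with a class A plexin that carries the signal into the cell. Sema3e binds Plxnd1 directly, and the membrane-bound members bind plexins without a neuropilin, Sema4d mainly Plxnb1 and Plxnb2, Sema6a Plxna2 and Plxna4, and Sema6d Plxna1. In the visual system, Sema6d and Plxna1 are known for the crossing of retinal axons at the chiasm, Sema6a with its A-type receptors for the layering of retinal neurites, and Sema3e with Plxnd1 for the shape of the retinal vessel bed. Inside the cell, activated plexins act on small GTPases and the cytoskeleton, so that a growth cone turns or collapses.

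The arrays followed their genotype labels at the targeted gene. Gpr143 (probe set 1420581_at) had WT values of 250.0, 257 and 246 and Oa1-/- values of 28.3, 39.1 and 6.02, in units of linear MAS5 signal, and its adjusted p in limma was 0.287. The median signal of an array ran from 108 to 121 in WT and from 93.6 to 129 in Oa1-/-. WT replicate 3 stood apart, with 3 of 3 Y-linked genes (Eif2s3y, Kdm5d and Uty) below a signal of 20, and Oa1-/- replicate 1 led the first principal component, which held 46.4% of the variance. The array's 18S ribosomal RNA controls did not overlap between genotypes, at 1476 to 1988 in WT against 2608 to 6348 in Oa1-/- for the 3' set. Of 11 periocular mesenchyme markers tested, 10 had a lower and 1 a higher mean log2 signal in Oa1-/-, with summed signals of 55562 to 66447 in WT against 55482 to 60129 in Oa1-/-. Of 9 ganglion cell markers, 7 were higher on that scale and 2 lower, with sums of 49426 to 53494 and 54820 to 61570. An unadjusted p below 0.05 in limma was found for 4 of the 11 mesenchyme markers, all lower. It was also found for 4 of the 9 ganglion cell markers, all higher. Over all genes, each by its brightest probe set, 3.65% had such a p. After adjustment 0 markers of either list passed. Lens genes were among the brightest signals although the anterior segments had been cut away. Summed signals of 8 lens markers were 118188, 152622 and 156160 in WT against 152236, 149468 and 143664 in Oa1-/-, lowest on WT replicate 1. On the log2 scale 8 lens markers were higher in Oa1-/- and 0 lower. The part of these in the values below was not tested. Retinal markers (Pax6, Atoh7) and pigment cell markers (Tyr, Dct) were bright, while Rpe65 lay near the background, at 7.47 in WT against 4.06 in Oa1-/-.

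All 10 genes had at least 1 probe set bright enough to test, and none changed past the threshold. Of the 28 probe sets, 18 passed the filter on low signal, with means over the 6 arrays between 71.3 and 2567. Each of those 18 lay above the highest of the 27 unspiked bacterial controls on all 6 arrays, and these controls reached 22.1 to 39.3. In limma, 0 of the 18 had an adjusted p below 0.05, where 0% of all 27029 probe sets tested did. At an unadjusted p below 0.05 there were 2 of 18, against 4.11% of all probe sets tested. Of these, 1 was higher in Oa1-/-, where 1.66% of all were, and 1 was lower, where 2.45% were. On the log2(signal + 16) scale 0 of the 18 differed by 1.5-fold or more, against 1.89% of all. That scale understates dim probe sets, and with a pseudocount of 1 the 2 nominal ones, 1451753_at of Plxna2 and 1457840_at of Plxna4, had log2 changes of −0.61 and 0.60, past 1.5-fold. The genotypes did not overlap on the same 2 probe sets (1451753_at of Plxna2 and 1457840_at of Plxna4), where 10.2% of all probe sets tested showed no overlap. In pooled tissue fewer cells of a type and less RNA per cell cannot be told apart.

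The other 10 probe sets were too dim to test. Their means ran from 6.94 to 52.4, and 2 of the 10 lay above the controls on every array. They belong to Sema3e, Sema4d, Sema6a, Sema6d and Plxna1, so 9 of the 10 are semaphorin probe sets. On 1420823_at of Sema4d the genotypes did not overlap (4.06, 5.65 and 3.68 in WT, 8.15, 8.72 and 11.4 in Oa1-/-), but all 6 values lay under the controls of their arrays. The brighter Sema4d probe set that the annotation ties to the same sequence record is described below.

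Taking the brightest probe set of each gene, 4 log2 changes were above 0 and 6 below, with a median of −0.022, and 0 of 10 had an unadjusted p below 0.05. Over the brightest probe sets of all 12901 genes measured this way, 50.9% were above 0 and 3.65% had such a p. Over all probe sets tested the median log2 change was −0.01. The 10 changes ran from −0.24 to 0.18 on the log2(signal + 16) scale. The 95% confidence interval lay wholly within a 1.5-fold change for 7 of the 10, all but Sema3e, Plxna2 and Plxna4. Over all probe sets tested it did so for 16754 of 27029, but these also hold the dimmer probe sets of genes and are not matched for signal.

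**Figure D1:**
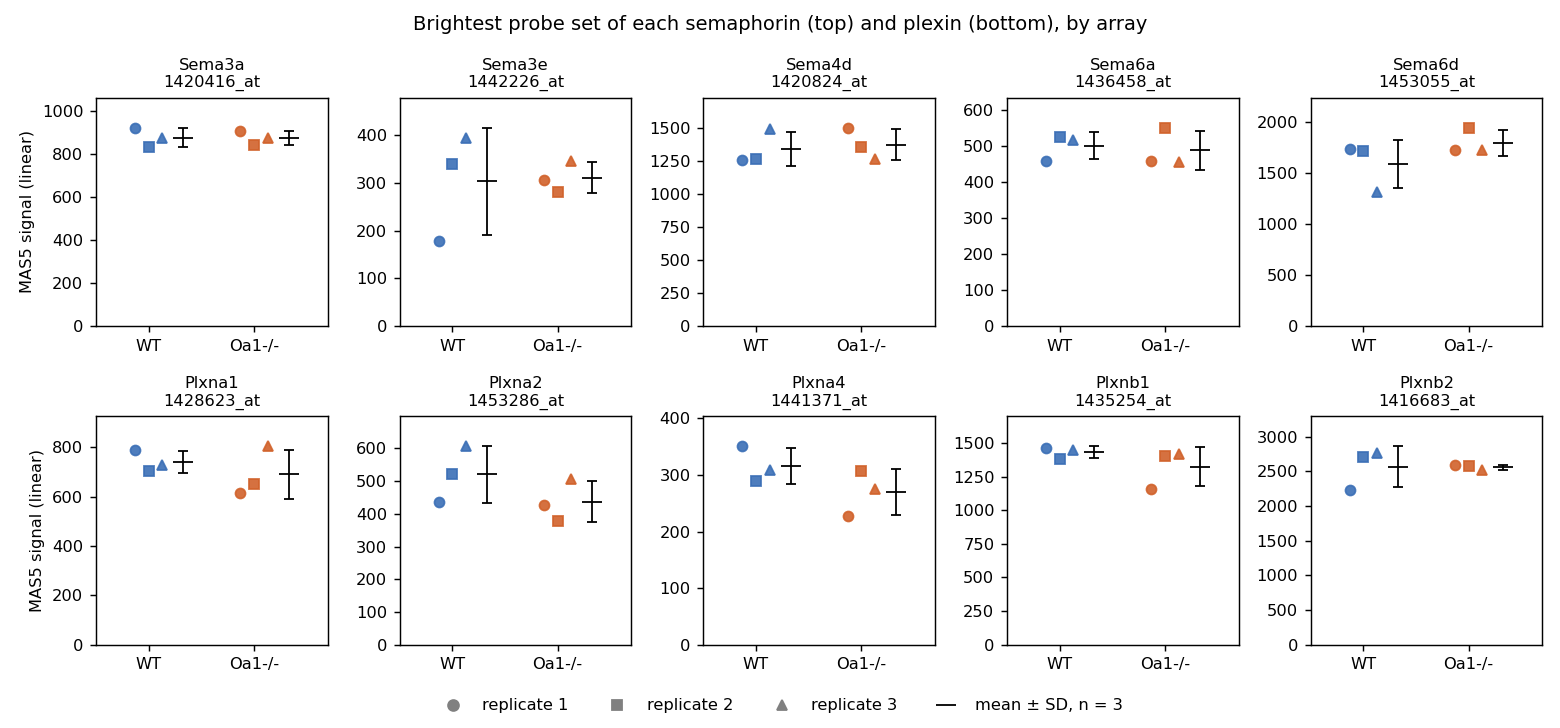
MAS5 signal (linear axis from 0) of the brightest probe set of each gene on each of the 6 arrays, semaphorins in the top row and plexins in the bottom row. Symbols mark the replicate, and black bars give the mean ± SD of 3 litter pools. The genotypes overlap in all 10 panels. WT replicate 1 is low for Sema3e, at 179, WT replicate 3 is low for Sema6d, at 1316, and Oa1-/- replicate 1 is low for Plxnb1, at 1156.

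Among the ligands, Sema3a, the secreted repellent that gave the class its first function as a growth cone collapsing factor, was the steadiest. On 1420416_at it read 924, 835 and 877 in WT against 909, 843 and 876 in Oa1-/-. The WT mean of 879 ± 45.0 (SD, n = 3) and the Oa1-/- mean of 876 ± 33.2 (SD, n = 3) differed by less than the spread in either group. The log2 change was −0.0039 (SE 0.093, 95% interval −0.22 to 0.21, adjusted p = 0.999 in limma). A change this close to 0 has no settled sign, and it was 0.016 after quantile normalization, 0.027 after median centring, 0.033 without WT replicate 1 and 0.023 without Oa1-/- replicate 2.

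The dimmer Sema3a probe sets, which the annotation ties to the same sequence record, scattered more. On 1449865_at the WT arrays read 274, 205 and 145 and the Oa1-/- arrays 244, 219 and 229. The Oa1-/- values lay inside the WT range, and the log2 change of 0.18 (SE 0.22) became −0.036 without WT replicate 3. On 1420417_at the values were 75.7, 109 and 50.8 in WT against 61.1, 79.1 and 52.3 in Oa1-/-, and the change of −0.20 (SE 0.28) became 0.022 without WT replicate 2. No probe set of Sema3a separated the genotypes.

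Sema3e, the secreted ligand of Plxnd1, varied mainly within WT on its brightest probe set. Its brightest probe set, 1442226_at, read 179, 339 and 394 in WT against 307, 280 and 346 in Oa1-/-. The Oa1-/- values lay between the lowest and the highest WT value. The means were 304 ± 112 and 311 ± 33.2 (SD, n = 3), with a log2 change of 0.097 (SE 0.27, 95% interval −0.51 to 0.70, adjusted p = 0.992 in limma), which was −0.23 without WT replicate 1. A second tested probe set, 1419717_at, read 123, 114 and 183 in WT against 154, 110 and 162 in Oa1-/-, with SDs of 37.7 and 27.8 (n = 3). Its change of 0.031 (SE 0.23) became −0.041 without WT replicate 1, −0.086 without WT replicate 2, −0.029 without Oa1-/- replicate 1 and −0.063 without Oa1-/- replicate 3. Both probe sets were highest on WT replicate 3.

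Sema3a and Sema3e both lie on chromosome 5 in the RefSeq table, in the order Sema3d, Sema3a, Sema3e and Sema3c. No protein-coding gene separates Sema3d from Sema3a, 3 separate Sema3a from Sema3e, and 15 separate Sema3e from Sema3c. Neither neighbour passed the test. The brightest Sema3d probe set read 295 ± 134 in WT against 215 ± 28.0 in Oa1-/- (log2 change −0.35, SE 0.28), and that of Sema3c 2522 ± 412 and 2444 ± 235 (log2 change −0.036, SE 0.13), both with an unadjusted p over 0.05 in limma.

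Sema4d, the membrane-bound ligand also known as CD100, was measured well on 1420824_at. The WT arrays read 1262, 1270 and 1493 and the Oa1-/- arrays 1504, 1357 and 1269. High and low arrays occurred in both genotypes, WT replicate 3 and Oa1-/- replicate 1 being the highest. The means of 1342 ± 131 and 1377 ± 119 (SD, n = 3) gave a log2 change of 0.037 (SE 0.11, 95% interval −0.20 to 0.28, adjusted p = 0.993 in limma). It was −0.028 without Oa1-/- replicate 1 and −0.0038 without WT replicate 1.

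Sema6a, a membrane-bound semaphorin that acts through Plxna2 and Plxna4, read 458, 525.5 and 517 in WT against 457, 550 and 454 in Oa1-/- on 1436458_at. Oa1-/- held both the lowest and the highest array, and the groups overlapped. The log2 change was −0.040 (SE 0.13, 95% interval −0.33 to 0.25, adjusted p = 0.994 in limma), and it was 0.0015 without Oa1-/- replicate 1 and 0.0062 without Oa1-/- replicate 3. Its other probe sets, 1421414_a_at and 1425903_at, were not tested.

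Sema6d, the partner of Plxna1 in the chiasm, had the most positive change among the brightest probe sets. On 1453055_at it read 1729, 1718 and 1316 in WT against 1723, 1942 and 1721 in Oa1-/-. Oa1-/- replicate 2 was the highest and WT replicate 3 the lowest, while the other 4 arrays lay between 1718 and 1729. The means of 1588 ± 235 and 1795 ± 127 (SD, n = 3) gave a log2 change of 0.18 (SE 0.12, 95% interval −0.094 to 0.46), and its limma p was 0.167 unadjusted and 0.985 adjusted. Without WT replicate 3 the change was 0.056, and without Oa1-/- replicate 2 it was 0.13. The other 3 Sema6d probe sets had means under the filter, and their 18 values ran from 9.11 to 107.

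Among the receptors more probe sets had negative than positive values, without a call. Of the 10 plexin probe sets tested, the log2 change was above 0 for 3 and below 0 for 7, and its median was −0.11. Of the 8 semaphorin probe sets, 5 were positive and 3 negative, with a median of 0.034. The share above 0 was 47.5% over all probe sets tested. Oa1-/- replicate 1 gave the lowest value for 5 of the 18 probe sets, all of plexins, where it was lowest for 27.6% of all probe sets tested. WT replicate 3 gave the highest value for 5 of the 18, where it was highest for 19.7% of all.

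**Figure D2:**
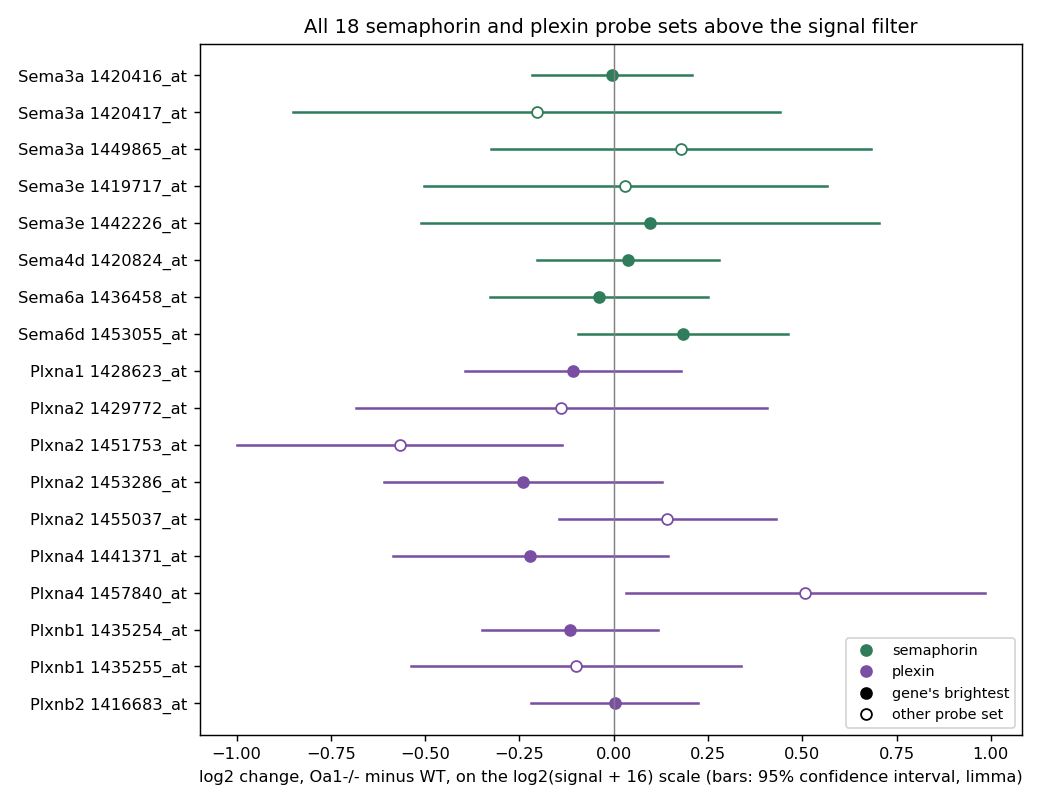
Log2 change, Oa1-/- minus WT, on the log2(signal + 16) scale for the 18 probe sets tested, with 95% confidence intervals from limma (3 arrays per genotype). Filled circles are the brightest probe set of a gene. The intervals of 16 cross 0. Those of 1451753_at of Plxna2 (−0.998 to −0.14) and 1457840_at of Plxna4 (0.032 to 0.98) do not, and neither passed after adjustment.

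Plxna1, a receptor for Sema6d and, with neuropilins, for class 3 semaphorins, read 790, 704 and 728 in WT against 614, 652 and 804 in Oa1-/- on 1428623_at. Oa1-/- replicate 3 was the highest of all arrays and the other Oa1-/- arrays were the lowest. The means were 741 ± 44.4 and 690 ± 101 (SD, n = 3), with a log2 change of −0.11 (SE 0.13, 95% interval −0.40 to 0.18, adjusted p = 0.985 in limma). Without Oa1-/- replicate 1 the change was −0.031.

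Plxna2, a receptor for Sema6a and class 3 semaphorins, was the only gene here with 4 tested probe sets, and they did not share a sign. The lowest unadjusted p of the 18 probe sets (0.0157) was that of 1451753_at. It read 245, 240 and 296 in WT against 166, 139 and 210 in Oa1-/-, so that every Oa1-/- array lay below every WT array. The means of 261 ± 31.1 and 172 ± 36.0 (SD, n = 3) gave a log2 change of −0.57 (SE 0.19, 95% interval −0.998 to −0.14), a fold of 0.675. The adjusted p was 0.985 in limma, and an exact two-sided permutation test gave 0.1, which is the lower limit for 3 against 3. With 1 array left out the change ran from −0.71 to −0.44. Leaving out WT replicate 3 gave an unadjusted p of 0.0565, and leaving out Oa1-/- replicate 2 gave 0.0630, so this probe set was not in the nominal count there.

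The brighter Plxna2 probe sets differed less between genotypes. On 1453286_at the arrays read 435, 521 and 607 in WT against 428, 379 and 506 in Oa1-/-, a log2 change of −0.24 (SE 0.16, unadjusted p = 0.173, adjusted p = 0.985 in limma) with overlapping groups. It was −0.13 without WT replicate 3. On 1455037_at they read 433, 432 and 467 in WT against 431, 539 and 509 in Oa1-/-. Here Oa1-/- replicates 2 and 3 were the highest and the change was 0.14 (SE 0.13). The dimmest, 1429772_at, shares its annotated sequence record with 1453286_at. It read 84.2, 87.7 and 103 in WT against 112, 75.4 and 63.0 in Oa1-/-. Its change of −0.14 (SE 0.24) was 0.012 without Oa1-/- replicate 3.

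Plxna4, a receptor for Sema6a and, with Nrp1, for Sema3a, had 2 probe sets with opposite signs. The brighter, 1441371_at, read 351, 289 and 308 in WT against 227, 307 and 275 in Oa1-/-. The means of 316 ± 31.8 and 270 ± 40.4 (SD, n = 3) gave a log2 change of −0.22 (SE 0.16, 95% interval −0.59 to 0.14, adjusted p = 0.985 in limma), which was −0.11 without Oa1-/- replicate 1. The dimmer, 1457840_at, read 73.6, 67.2 and 54.9 in WT against 87.3, 99.5 and 112 in Oa1-/-, so that every Oa1-/- array lay above every WT array. Its means were 65.3 ± 9.49 and 99.5 ± 12.1 (SD, n = 3), with a log2 change of 0.51 (SE 0.21, 95% interval 0.032 to 0.98), and its limma p was 0.0391 unadjusted and 0.985 adjusted. Its WT values lay close to the limit of the filter, a signal of 63.7. The unadjusted p was above 0.05 when any array other than Oa1-/- replicate 1 was left out, from 0.0505 to 0.114, while the change stayed between 0.41 and 0.59.

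The difference between probe sets of a gene can also be taken within each array, where the scaling of the array drops out. It is made from the values given above and is not separate evidence. For Plxna2, the log2 level of 1451753_at minus that of 1455037_at was −0.78, −0.80 and −0.63 on the WT arrays and −1.29, −1.84 and −1.21 on the Oa1-/- arrays. For Plxna4, 1457840_at minus 1441371_at was −2.03, −1.87 and −2.19 in WT and −1.23, −1.49 and −1.19 in Oa1-/-. The genotypes differed by −0.71 and by 0.73 on this scale, without overlap, each with an exact two-sided permutation p of 0.1, the smallest possible here. Each pair set the probe set without overlap against the tested probe set of its gene with the most opposite change. These pairs were picked after their values had been seen, so the p-values are a description. The transcripts that each probe set reads were not analysed here.

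**Figure D3:**
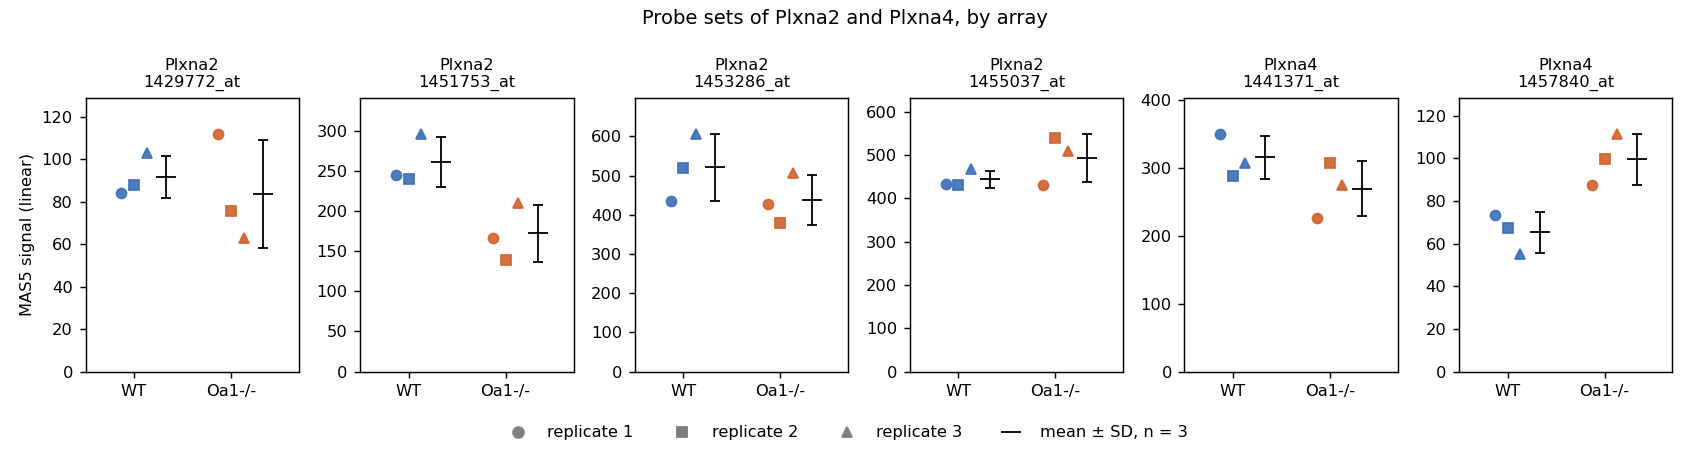
MAS5 signal (linear axes from 0) of the 4 Plxna2 and 2 Plxna4 probe sets on each array, with mean ± SD of 3 litter pools in black. The Oa1-/- arrays lie below all WT arrays on 1451753_at (139 to 210 against 240 to 296) and above them on 1457840_at (87.3 to 112 against 54.9 to 73.6). On the other 4 probe sets the genotypes overlap.

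Plxnb1 is the main receptor for Sema4d and acts on RhoA through the exchange factors Arhgef11 and Arhgef12. It had 2 probe sets that the annotation ties to 1 sequence record. On 1435254_at it read 1463, 1379 and 1450 in WT against 1156, 1401 and 1417 in Oa1-/-, with means of 1430 ± 45.1 and 1324 ± 146 (SD, n = 3). Only Oa1-/- replicate 1 stood below the rest, and without it the log2 change of −0.12 (SE 0.10, 95% interval −0.35 to 0.12, adjusted p = 0.985 in limma) was −0.021. On 1435255_at the arrays read 771, 883 and 928 in WT against 574, 950 and 934 in Oa1-/-. The same array was again the lowest, and the change of −0.10 (SE 0.19) was 0.13 without it. Without that array the Plxnb1 probe sets had a change near 0 and a positive one.

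Plxnb2, another receptor for class 4 semaphorins, was measured by 1 probe set, 1416683_at. It read 2232, 2715 and 2765 in WT against 2592, 2577 and 2524 in Oa1-/-. All Oa1-/- values lay inside the WT range, and the spread was 294 in WT against 35.8 in Oa1-/- (SD, n = 3). The log2 change was 0.0027 (SE 0.10, 95% interval −0.22 to 0.22, adjusted p = 0.999 in limma). It was −0.095 without WT replicate 1, −0.0050 without Oa1-/- replicate 1, −0.00092 without Oa1-/- replicate 2 and −0.0089 after quantile normalization.

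Known ligand and receptor pairs are set side by side here by the log2 changes of their brightest probe sets. Because 0 of the 10 genes had an unadjusted p below 0.05 in limma on that probe set, no pair could have had both partners below it. For Sema6d and Plxna1 the log2 changes were 0.18 and −0.11. For Sema4d they were 0.037 against −0.12 for Plxnb1 and 0.0027 for Plxnb2. For Sema6a they were −0.040 against −0.24 for Plxna2 and −0.22 for Plxna4. For Sema3e and its receptor Plxnd1 they were 0.097 and −0.25.

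The wider pathway was read from a list of 52 other genes, each by its brightest probe set, of which 50 were tested. In limma 0 of 50 had an adjusted p below 0.05, as did 0% of the 12901 genes read this way. At an unadjusted p below 0.05 there were 2 of 50, 1 higher and 1 lower, against 3.65%. The groups did not overlap for 7 of 50, against 10.8% of genes. Of the 50, 26 lay above 0 and 24 below, with a median log2 change of 0.030.

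Chl1, a cell adhesion molecule of the L1 family that joins neuropilin receptor complexes, had the largest change of the list. Its probe set 1435190_at read 232, 403 and 300 in WT against 426, 503 and 485 in Oa1-/-, and the groups did not overlap. The means of 312 ± 86.0 and 471 ± 40.4 (SD, n = 3) gave a log2 change of 0.60 (SE 0.19, unadjusted p = 0.0140, adjusted p = 0.985 in limma). With 1 array left out it ran from 0.42 without WT replicate 1 to 0.80 without WT replicate 2. Its other 3 probe sets were under the filter, and on 1447036_at the means were 31.3 in WT against 11.5 in Oa1-/-, near the background and in the opposite order.

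Plxnd1, the receptor for Sema3e on vessels and some neurons, read 1116, 1081 and 949 in WT against 838, 942 and 853 in Oa1-/- on its only probe set, 1451475_at. The lowest WT and the highest Oa1-/- value were close, without overlap. The means were 1049 ± 88.2 and 878 ± 55.9 (SD, n = 3), with a log2 change of −0.25 (SE 0.10, unadjusted p = 0.0390, adjusted p = 0.985 in limma). The unadjusted p was 0.228 after median centring, 0.0546 after quantile normalization and 0.0619 without an intensity trend, and it was above 0.05 when any array other than WT replicate 3 or Oa1-/- replicate 2 was left out. Of 6 endothelial markers, 5 lay above 0 and 1 (Kdr, the brightest) below, where 50.9% of genes lay above 0. None had an unadjusted p below 0.05 in limma. Their summed signals overlapped, at 3885 to 4118 in WT against 3987 to 4239 in Oa1-/-. The part of vessel cells in the Plxnd1 values was not tested.

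The other plexins and the neuropilins gave no nominal call with all 6 arrays. Plxnc1, the receptor for Sema7a, read 1193, 1206 and 1160 in WT against 1295, 1343 and 1324 in Oa1-/- on 1423213_at, a log2 change of 0.15 (SE 0.079, unadjusted p = 0.0884, adjusted p = 0.985 in limma) without overlap. On its dimmer tested probe sets, 1450905_at and 1450906_at, the groups overlapped, with changes of 0.10 (SE 0.13) and 0.097 (SE 0.30). Plxnb3, a receptor for Sema5a, was dim, at 58.4 ± 7.36 in WT against 85.5 ± 22.4 in Oa1-/- (SD, n = 3), with a log2 change of 0.43 (SE 0.24). Every WT value of this probe set, 1418750_at, and that of Oa1-/- replicate 1 lay under the filter's signal of 63.7. It was thus tested only through Oa1-/- replicates 2 and 3, at 106 and 88.3. Without Oa1-/- replicate 1 its unadjusted p in limma was 0.0267, but that fit keeps those high arrays and is no support. On 1440813_s_at of Plxnb3, under the filter, the means were 48.8 in WT against 55.7 in Oa1-/-, with overlap. Plxna3 read 1113 ± 64.4 and 1031 ± 214, and its change of −0.13 (SE 0.15) was 0.052 without Oa1-/- replicate 1. On its dimmer probe set, 1420995_at, the change was 0.035 (SE 0.24). Nrp1, the neuropilin that binds Sema3a, read 1523 ± 303 and 1561 ± 80.9 on 1448943_at (log2 change 0.053, SE 0.14), which was −0.10 without WT replicate 3, and its other 3 probe sets had changes of −0.27, −0.12 and −0.23. Nrp2, which prefers Sema3f, read 952 ± 149 and 821 ± 123 on 1435349_at (log2 change −0.21, SE 0.15). That change was −0.094 without Oa1-/- replicate 1, −0.12 without WT replicate 1 and −0.34 without WT replicate 3, the last with an unadjusted p of 0.0476 in limma. The other tested Nrp2 probe sets, 1426528_at and 1456778_at, had changes of −0.019 and −0.19 with overlapping groups. On 1447343_at of Nrp2, just under the filter, the means were 96.7 in WT against 27.2 in Oa1-/-, without overlap. The SDs here are over 3 arrays.

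Of the 14 other semaphorins tested, 6 lay above 0 and 8 below, and 0 had an unadjusted p below 0.05 in limma. Sema5a, which repels retinal neurites, read 820, 855 and 952 in WT against 817, 565 and 805 in Oa1-/- on 1437422_at, without overlap but with Oa1-/- replicate 1 next to the lowest WT array (log2 change −0.28, SE 0.15, unadjusted p = 0.107). Without Oa1-/- replicate 2 that change was −0.11. On 1434776_at, a Sema5a probe set of similar brightness, the groups overlapped and the log2 change was −0.10 (SE 0.13, unadjusted p = 0.444 in limma). On 1459109_at, under the filter, the means were 7.79 in WT against 29.1 in Oa1-/-, without overlap and in the opposite order. Sema4b, a membrane-bound class 4 semaphorin, read 496, 547 and 529 in WT against 587, 330 and 320 in Oa1-/- (log2 change −0.39, SE 0.22, unadjusted p = 0.113), where Oa1-/- replicate 1 was the highest of all arrays and the change without it was −0.66, where its limma p was 0.000877 unadjusted and 0.836 adjusted. Both genes had an adjusted p of 0.985 with all arrays.

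Of 25 signalling partners tested, 15 lay above 0 and 10 below, from −0.18 to 0.23 on the log2 scale, with a median of 0.035 and 0 with an unadjusted p below 0.05 in limma. The 95% interval lay within a 1.5-fold change for 22 of the 25, against 16754 of all 27029 probe sets tested. The latter also hold the dimmer probe sets of genes, so these shares are not matched for signal. Dpysl2, which relays the Sema3a signal to microtubules, read 16880 ± 1311 in WT against 17169 ± 458 in Oa1-/- (SD, n = 3). Rhoa read 4521 ± 370 and 4956 ± 409, and Arhgef11, the exchange factor bound by B-type plexins, 526 ± 75.6 and 624 ± 115. These 3 were picked after their values had been seen.

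**Figure D4:**
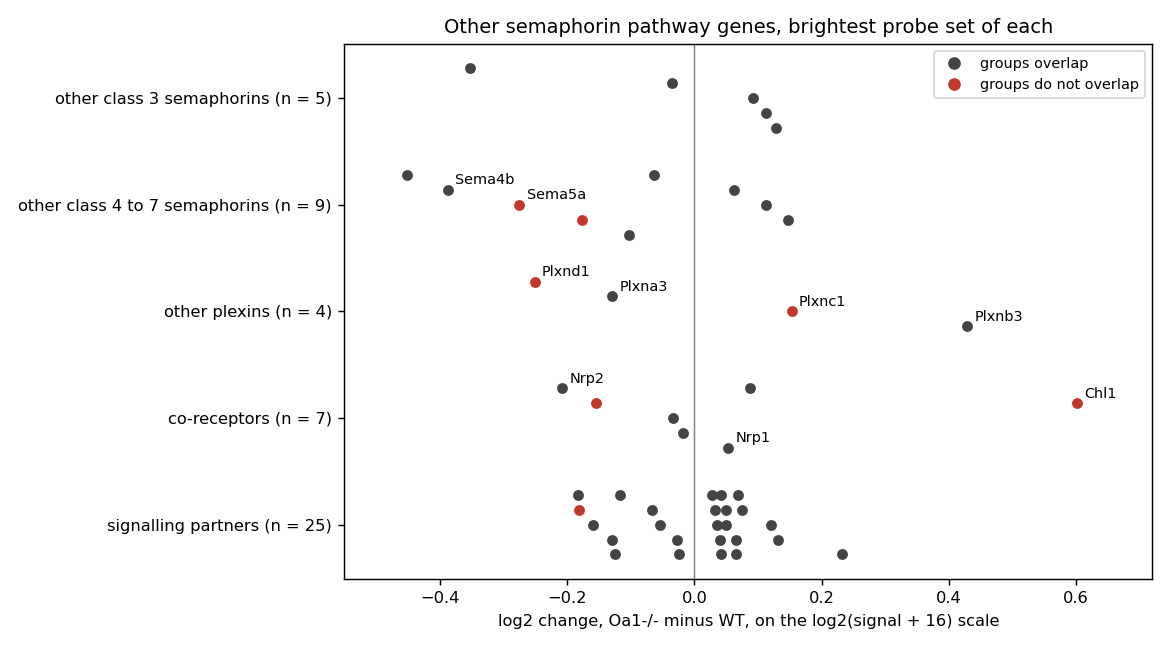
Log2 change, Oa1-/- minus WT, on the log2(signal + 16) scale for 50 other genes of the semaphorin pathway, 1 point per gene (brightest probe set), in 5 groups with the vertical offset inside a group for legibility only. Red points mark the 7 genes whose genotypes do not overlap. Signalling partners lie between −0.18 and 0.23, and Chl1, at 0.60, lies farthest from 0.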

How the data were processed

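Affymetrix arrays measured biotin-labelled cRNA made from 12.5 micrograms of total RNA of each of 6 litter pools, 3 WT and 3 Oa1-/-. Per the submitters' processing notes, the authors used MAS5 (no version stated) to make the deposited table, which holds a linear signal intensity for each probe set on each array. The values show a common scaling of all arrays. Detection calls were not used here, and the number of arrays limits the precision.

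Gene symbols came from the annotation table of the platform (34945 with 1 symbol, 932 with several, which were not used, and 9160 with none, control probe sets aside). The RefSeq table gave gene order only. From the intensities, log2(signal + 16) was computed without further scaling. Probe sets whose mean log2 value lay above the 40th percentile (a signal of 63.7) were kept, leaving out 64 control probe sets. limma 3.58.1 in R 4.3.3 (lmFit, eBayes with an intensity trend) was fitted to all 27029 probe sets kept, Oa1-/- minus WT, two-sided, with Benjamini-Hochberg adjustment over all of them. The code was tested on simulated data.

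The genes, the lists and the rule for naming genes were chosen with earlier results of these data known. The rule took each gene's brightest probe set, other probe sets with an unadjusted p below 0.05 or without overlap, and, of the pathway list, genes with such a p filled to 3 per direction, plus Nrp1, Nrp2, Plxnd1 and Plxna3. Neighbouring semaphorins and 3 signalling partners were added after their values had been seen. Alternatives were pseudocounts of 1 and 64, no filter, quantile normalization, a stricter filter (70th percentile), median centring and no intensity trend. Others were the replicate number as a block, gene means, and arrays left out. Another removed probe sets ending in _s_at, _x_at or _a_at, which can match several transcripts. All 18 semaphorin and plexin probe sets tested remained in it.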

Additional observations from a re-analysis of the deposited data

How the results depend on the processing

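No semaphorin or plexin probe set, and no pathway gene, passed at an adjusted p below 0.05 in limma under the alternatives counted that way, which leave out gene means and the removal of probe sets that can match several transcripts, and the lowest adjusted p of a named probe set other than Gpr143 was 0.646. Gpr143 passed after median centring (−2.79, adjusted p = 0.000627). The count of semaphorin and plexin probe sets with an unadjusted p below 0.05, 2 in the report, was 0 with the 70th percentile filter, 0 with gene means, 0 without both WT replicate 3 and Oa1-/- replicate 1, 1 without a filter and 1 with the replicate block, and it ran from 0 to 2 with 1 array left out. The pathway count, also 2, was 1 without an intensity trend, with the 70th percentile filter, with median centring or with quantile normalization, 5 without both of those arrays, and from 1 to 4 with 1 array left out. Replicate numbers did not pair the samples. Same-numbered deviations from the group means correlated at −0.29, 0.15 and −0.25. With 3 arrays on each side the block leaves each log2 change as it was and moves only the p, and with the replicate block the unadjusted p was 0.0836 for Plxna4 (1457840_at) and 0.0508 for Plxnd1.

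Of 28 named changes, 16 kept their sign under every alternative. Quantile normalization turned Plxnb2 to −0.0089 and Sema3a (1420416_at) to 0.016, and median centring turned the latter to 0.027. Leaving out both arrays turned Nrp1 to −0.057, Plxna3 to 0.012, Plxnb1 (1435255_at) to 0.19, Sema3a (1449865_at) to −0.074 and Sema6a to 0.026. With 1 array or that pair left out, the changes ran from −0.10 to 0.19 for Nrp1, −0.24 to 0.052 for Plxna3, −0.22 to 0.19 for Plxnb1 (1435255_at), −0.095 to 0.058 for Plxnb2, −0.34 to 0.012 for Plxna2 (1429772_at), −0.040 to 0.033 for Sema3a (1420416_at), −0.43 to 0.022 (1420417_at), −0.074 to 0.39 (1449865_at), −0.23 to 0.32 for Sema3e (1442226_at), −0.086 to 0.22 (1419717_at), −0.028 to 0.12 for Sema4d and −0.13 to 0.026 for Sema6a. Low signal limits the 10 untested probe sets.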
